A study of Mus musculus with 12 samples.

Results

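Vascular endothelial growth factor (VEGF) and the angiopoietins are ligand systems through which blood vessel cells receive growth and survival signals, and 10 genes of these systems were examined in sorted mouse liver cells. They were taken by symbol from the 54227 gene symbols of the expression table: the ligand genes Vegfa, Angpt1 and Angpt2, the VEGF receptor genes Flt1, Kdr and Flt4, the co-receptor genes Nrp1 and Nrp2, and the angiopoietin receptor genes Tek and Tie1. All 10 were in the table, and all 10 passed the filter on low values that left 16128 genes for testing.

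The cells came from livers of C57Bl/6 mice that carried the Sox9EGFP transgene, a fluorescent reporter of Sox9. Sox9 is a transcription factor of bile duct cells. All 4 populations came from mice with the same transgene, fasted for 16 h before the liver was digested; the ages of the mice are not given in the sources used here. Cells were sorted by EGFP into neg (EGFP-negative), sub (the gate below low), low and high, with 12000 cells per library and 3 libraries per population, 12 in all. The labels number the libraries 1 to 3 within each population but do not say that they came from separate animals. The same 3 name endings recur in the sample descriptions of all 4 populations, 1 per library number, and what they stand for is not given in the sources used here, so p-values measure only the spread between these libraries.

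VEGF-A binds the tyrosine kinases VEGFR1 (encoded by Flt1) and VEGFR2 (Kdr); VEGFR2 carries most of the growth signal in blood vessel endothelium, and VEGFR1 binds VEGF-A tightly with weak kinase output. VEGFR3 (Flt4) binds VEGF-C and VEGF-D and is best known from lymphatic endothelium, but liver sinusoidal endothelial cells also make it. Angiopoietin-1 activates the receptor TIE2 (Tek), angiopoietin-2 mostly competes with it, and TIE1 modulates TIE2. In the liver, hepatocytes and bile duct cells are known sources of VEGF-A, and sinusoidal endothelium is a main site of its receptors.

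The unit throughout is the authors' deposited normalised count, whose values behave as whole reads per gene times 1 factor per library. Recovered depth ranged from 8775387 to 15535588 reads per library. Sox9 itself was at 0 or below 1 in the 3 neg libraries and between 3707 and 17140 in the 9 EGFP-positive ones. Summed over 10 pan-endothelial markers, among them Pecam1 and Cdh5, the level was 40853 to 53871 in neg and 17017 to 18951 in sub, and 441.8 to 918.8 in low and 111.1 to 779.7 in high. Of these 10, 5 were at 0 in all 6 low and high libraries (Erg, Emcn, Robo4, Sox17 and Sox18), as were Esam in all 3 low and Eng in all 3 high libraries. Over 10 biliary markers the sum was 22.2 to 412.5 in neg and 19825 to 35892 in sub, and 66425 to 90763 in low and 61733 to 68625 in high, with Epcam at 0 in all 3 neg libraries. The sub libraries thus held both marker groups. Library low 1 had the most genes above 0 (12687), and sub 2 the fewest (9039).

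The promoters of 3 of the receptor genes and of Vegfa are shown because the receptors stood high and low together in these libraries while Vegfa did not. The sequences are RefSeq's on GRCm38, the 250 bases before the gene start (247 for Kdr) read 5′ to 3′ on the gene's strand: chr5:147726012-147726261 (minus strand) for Flt1, chr5:75978459-75978705 (minus) for Kdr, chr4:94739039-94739288 (plus) for Tek and chr17:46032378-46032627 (minus) for Vegfa. Capitals mark GGAAG, the core bound by ETS factors, CAGGAA, a longer ETS form, and AGATAA, a form bound by GATA factors; a motif on the other strand appears as its reverse complement.
Flt1: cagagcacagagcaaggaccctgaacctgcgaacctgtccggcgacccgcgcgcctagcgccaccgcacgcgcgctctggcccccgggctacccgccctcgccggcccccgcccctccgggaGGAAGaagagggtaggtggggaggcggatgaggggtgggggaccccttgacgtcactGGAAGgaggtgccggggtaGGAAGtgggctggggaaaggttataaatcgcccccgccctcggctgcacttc
Kdr: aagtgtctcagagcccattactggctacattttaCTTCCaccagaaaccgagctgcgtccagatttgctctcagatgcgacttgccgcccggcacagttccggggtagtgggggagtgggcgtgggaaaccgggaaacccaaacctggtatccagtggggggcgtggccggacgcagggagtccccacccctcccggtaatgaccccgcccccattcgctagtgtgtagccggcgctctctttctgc
Tek: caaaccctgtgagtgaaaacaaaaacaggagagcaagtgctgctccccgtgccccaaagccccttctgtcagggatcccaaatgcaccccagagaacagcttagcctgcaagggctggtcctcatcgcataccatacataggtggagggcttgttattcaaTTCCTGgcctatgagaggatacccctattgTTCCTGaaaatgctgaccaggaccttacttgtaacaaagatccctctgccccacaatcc
Vegfa: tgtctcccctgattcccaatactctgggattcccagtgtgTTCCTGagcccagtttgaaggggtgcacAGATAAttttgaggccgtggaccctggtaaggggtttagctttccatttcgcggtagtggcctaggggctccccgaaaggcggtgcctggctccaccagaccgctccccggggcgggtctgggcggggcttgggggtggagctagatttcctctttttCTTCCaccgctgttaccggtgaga

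Of the 10 genes, 8 matched the promoter table. On either strand GGAAG was found in the 250 bases before the start of 5 of the 7 receptor genes, and 64.1% of the 32851 promoters in the table hold it. CAGGAA was found in 3 of 7, against 25.7% of all promoters. Neither the hypoxia response core ACGTG nor AGATAA was found in any of the 7 receptor windows, and 16.6% and 9.99% of all promoters hold them. Vegfa has a second promoter, not shown, which held ACGTG on the other strand 211 bases before its start. The shares among the receptors were thus near those of promoters in general for GGAAG, and these letter matches are not binding sites.

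**Figure D1:**
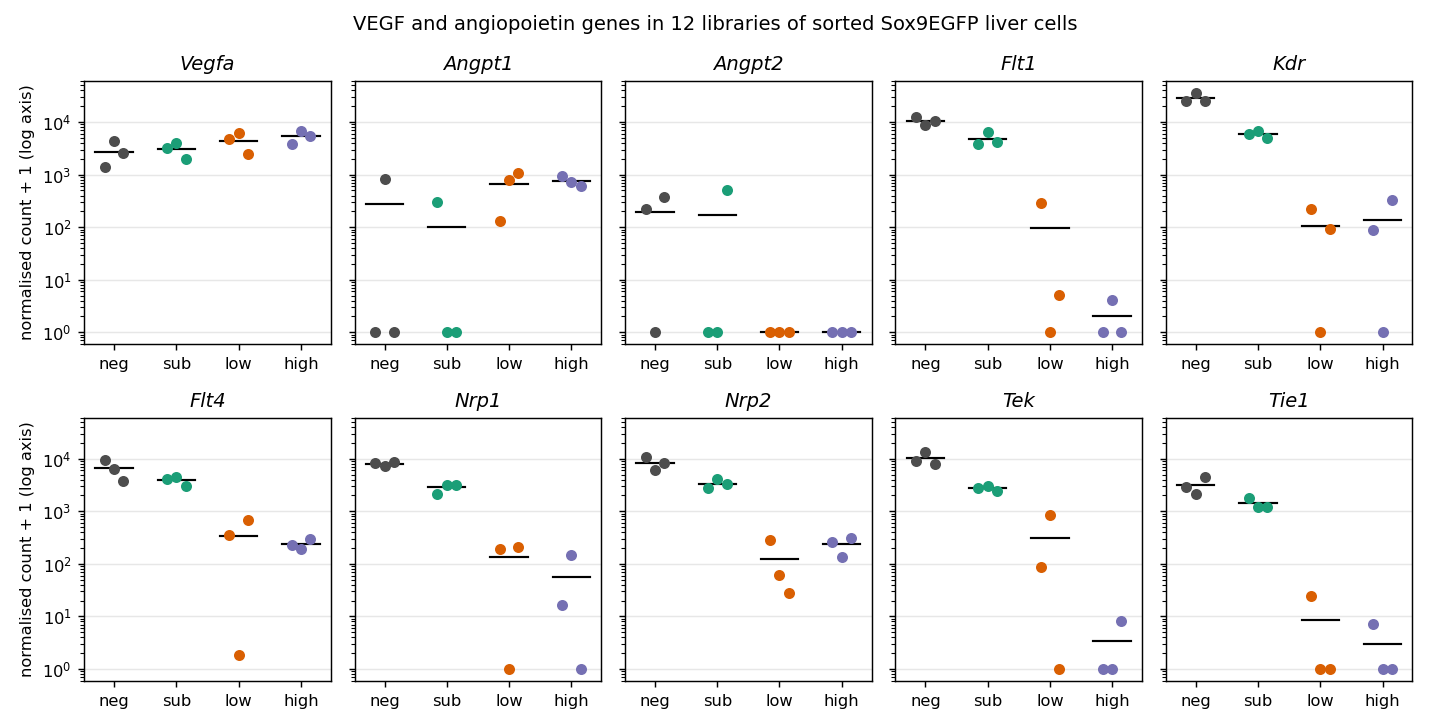
Normalised count + 1 on a log axis (y) for each of the 10 genes in the 4 populations (x), with 1 point per library and a line at the mean of 3 libraries. The 7 receptor genes stand at or above 1191 in neg and sub and at or below 856.4 in low and high, while Vegfa stays between 1409 and 6755 everywhere.

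Vegfa was the most abundant of the 3 ligand genes, and it was present in every library. The gene spans bases 46016993 to 46032369 of chromosome 17, minus strand (GENCODE M21, GRCm38). In neg 1, 2 and 3 its normalised count was 1409, 4275 and 2546, followed by 3205, 4039 and 1948 in sub, 4759, 6106 and 2448 in low, and 3780, 6755 and 5534 in high. The means were ordered as EGFP, with 2744 ± 1443 for neg, 3064 ± 1053 for sub, 4438 ± 1850 for low and 5356 ± 1496 for high (SD, n = 3), but the libraries of every pair of populations overlapped. High exceeded neg by 1.95-fold, a log2 fold change of 1.07 ± 0.47 (SE) with an adjusted p of 0.262 in limma, and no pairwise comparison passed for Vegfa. The adjusted p of its F test over the 4 populations was 0.523.

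Angpt1, the activating ligand of TIE2, stood low and was spread over all 4 populations. The gene spans bases 42424723 to 42676977 of chromosome 15, minus strand. Its counts were 0, 834.1 and 0 in neg, 304.4, 0 and 0 in sub, 130.6, 805.5 and 1072 in low, and 942.3, 716.6 and 614.2 in high. It was thus above 0 in all 6 low and high libraries and in 1 of 3 libraries of each other population. Every high library was above every sub library, as were 7.2% of all genes tested, with means of 757.7 and 101.5, but the log2 fold change of 6.79 ± 2.78 had an adjusted p of 0.383 in limma. An exon of Angpt1 overlaps one of Gm17473 on the opposite strand, and the use of strand in counting is not given in the sources used here, so reads of the pair may have been shared.

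Angpt2 (bases 18690263 to 18741562 of chromosome 8, minus strand) had the lowest mean of the 10 genes over the 12 libraries, 91.9. It was at 216.9, 0 and 373.8 in neg and at 0, 0 and 511.7 in sub. All 6 low and high libraries were at 0. The neg mean of 196.9 was at least 81.6-fold higher than low, taking a floor of 3 reads per library, with an adjusted p of 0.329 in limma. Neg and sub overlapped, with 1 and 2 libraries at 0. DESeq2 on the recovered reads called Angpt2 lower in low and in high, each against neg and against sub, where limma and edgeR did not.

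Kdr was the most abundant of the 10 genes in neg. The gene spans bases 75932827 to 75978458 of chromosome 5, minus strand. Its counts were 24647, 35732 and 25356 in neg, 5968, 6798 and 5009 in sub, 222.6, 0 and 91.2 in low, and 88.3, 0 and 321.0 in high. The neg, sub and EGFP-brighter libraries formed 3 groups that did not overlap, and low and high overlapped. Per kilobase of its longest coding transcript it stood at 4824 ± 1048 in neg, above the next genes, Nrp1 at 2223 ± 197.5 and Tek at 2215 ± 646.1 (SD, n = 3). Its mean in neg was 4.82 times that in sub, the widest gap among the receptors, yet the log2 fold change of -2.26 ± 1.85 (SE, sub against neg) had an adjusted p of 0.719 in limma.

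Flt1 was nearly absent from high. The gene spans bases 147561604 to 147726011 of chromosome 5, minus strand. Its counts were 12494, 8751 and 10508 in neg, 3868, 6439 and 4214 in sub, 283.5, 0 and 4.11 in low, and 0, 3.03 and 0 in high. The 3 high libraries together held 3 reads, all in high 2. Neg was 10473-fold higher than high, with a counting interval of 3584 to 50783 (exact Poisson, 95%, counting error only), and the adjusted p was 3.22e-04 in limma. Without high 2, the other high libraries were at 0 and neg was at least 4195-fold higher at a floor of 3 reads per library. The low mean of 95.9 rested on low 1.

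Flt4 had the highest mean of the 3 VEGF receptor genes in low and in high. The gene spans bases 49609263 to 49652739 of chromosome 11, plus strand. Its counts were 9456, 6398 and 3756 in neg, 4039, 4537 and 3018 in sub, 351.0, 0.85 and 669.0 in low, and 224.1, 187.0 and 295.7 in high. Its neg and sub libraries overlapped. It was above 0 in all 12 libraries, and the high libraries, at 235.6 ± 55.2 (SD, n = 3), stood close to each other.

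The neuropilins are co-receptors that bind VEGF and semaphorins. Nrp1 (bases 128358604 to 128503363 of chromosome 8, plus strand) was at 8238, 7197 and 8555 in neg, 2172, 3154 and 3217 in sub, 193.0, 0 and 212.0 in low, and 15.6, 148.6 and 0 in high. Nrp2 (bases 62703285 to 62818695 of chromosome 1, plus strand) was at 10849, 6022 and 8234 in neg, 2760, 4080 and 3240 in sub, 278.3, 60.3 and 27.1 in low, and 263.1, 132.4 and 309.5 in high. For both, every sub library was below every neg library and above every low and high library. Of all genes tested, 4.99% were below neg in every sub library, and 5.99% and 5.91% were below sub in every low and every high library. For sub against neg the adjusted p was 0.819 for Nrp1 and 0.703 for Nrp2 in limma, and for Nrp1 it was 0.168 for low and 0.0695 for high against sub. An exon of Nrp1 overlaps the microRNA gene Mir1903 on the same strand. Nrp2 had the smallest standard error of the receptor genes, 0.93 on the log2 scale, against 2.35 for the median gene tested.

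The angiopoietin receptor genes were near 0 in high. Tek (bases 94739289 to 94874976 of chromosome 4, plus strand) was at 9150, 13720 and 8050 in neg, 2743, 3042 and 2442 in sub, 87.6, 856.4 and 0 in low, and 0, 0 and 7.35 in high. Tie1 (bases 118471191 to 118490061 of chromosome 4, minus strand) was at 2864, 2154 and 4425 in neg, 1818, 1215 and 1191 in sub, 23.0, 0 and 0 in low, and 6.06, 0 and 0 in high. Library low 2 carried most of the Tek reads of low and none of the Flt1, Kdr, Nrp1 or Tie1 reads. Tek and Tie1 were each at 0 in 2 of 3 high libraries, where Angpt1, the ligand gene of TIE2, was at 614.2 or above.

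Within neg, the per-kilobase order ran Kdr, Nrp1, Tek, Flt1, Nrp2, Flt4, Vegfa, Tie1 and then the angiopoietins; only the gaps below Kdr and below Tie1 were wider than the SDs of both neighbours together. Within sub it ran Kdr at 1000 ± 151.1, Vegfa at 887.9 ± 305.0, Nrp1, Flt1, Flt4, Tek, Nrp2 and Tie1 at 332.5 ± 83.9, and the first 2 did not differ beyond their spread. In high, Vegfa led at 1552 ± 433.4 and Angpt1 followed at 177.9 ± 39.4 per kilobase, and of the receptor genes Flt4 was at 37.7 ± 8.83 (SD, n = 3 throughout). Nrp2, at 34.9 ± 13.7, did not differ from Flt4 beyond its spread.

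The comparison of each EGFP-positive gate with neg asks how the reporter-marked cells differ from the rest of the liver cells collected. For sub against neg, 0 of the 10 genes passed the threshold of 0.05 on the adjusted p (limma), where 0.149% of all genes tested were called lower. An unadjusted p under 0.05 was reached by 0 of them, where 1539 of all 16128 genes tested reached it. edgeR and DESeq2 also called 0, against 0.105% and 5.62% of all genes, though DESeq2 gave no adjusted p for Kdr and Nrp1. Every sub library was nonetheless below every neg library for 6 of the 10 genes (Flt1, Kdr, Nrp1, Nrp2, Tek and Tie1), which held for 4.99% of all genes tested. The 10 genes had a median log2 fold change of -1.22, and that of all genes tested was 0. The 3 comparisons with neg share the neg libraries.

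All 7 receptor genes fell from neg to low (limma, adjusted p of 1.40e-04 for Nrp2 to 0.0255 for Tek), where 2.15% of all genes tested were called lower. The log2 fold changes were -10.03 ± 2.11 for Tie1, -10.00 ± 1.85 for Kdr, -9.85 ± 1.91 for Flt1 and -6.70 ± 0.93 for Nrp2 (SE). Means were 273.2-fold higher in neg for Kdr, 110.4-fold for Flt1 and 68.6-fold for Nrp2, but these ratios moved with single low libraries. Without low 1 they were 626.5-fold for Kdr, 5151-fold for Flt1 (5 reads left in low) and 191.4-fold for Nrp2, and without low 2 that of Kdr was 182.1-fold. Tie1 was 410.4-fold higher in neg, with all 31 low reads in low 1, and at least 1255-fold higher without that library. Every low library was below every neg library for the 7 receptor genes, as for 8.52% of all genes tested. The 3 ligand genes did not pass, and the median of the 10 genes was -7.27 against 0 for all genes. Leaving out any 1 of the 3 neg libraries kept Flt1, Nrp2 and Tie1 and ended the calls of the other 4, including Kdr. Flt4, Nrp1 and Tek were also lost without low 1, any 1 sub library, high 1 or high 2, Flt4 and Tek also without high 3, Nrp1 also without low 2, and Nrp1 and Tek also without low 3.

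For high against neg, 6 of the 10 genes fell, all receptor genes but Flt4, where 2.25% of all genes tested were called lower. The log2 fold changes were -12.68 ± 1.91 for Flt1, -12.27 ± 1.98 for Tek, -10.62 ± 2.11 for Tie1, -9.84 ± 1.85 for Kdr, -9.20 ± 1.94 for Nrp1 and -5.20 ± 0.93 for Nrp2 (SE), with adjusted p-values from 3.22e-04 to 0.00775 in limma. Flt4 was at -4.72 ± 1.49 with an adjusted p of 0.0807, although every high library was below every neg library for it, as for the other 6 receptor genes and 8.61% of all genes tested. Flt4 passed in edgeR and DESeq2. Flt1, Nrp2, Tek and Tie1 passed under all 22 alternatives, with a highest adjusted p of 0.0231 for Tie1. Kdr and Nrp1 were lost without any 1 neg library or without high 1, Kdr also without high 2 and Nrp1 also without high 3. In a fit of only neg and high, where 341 of all genes were called, Kdr and Nrp1 were also lost and Flt4 passed.

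**Figure D2:**
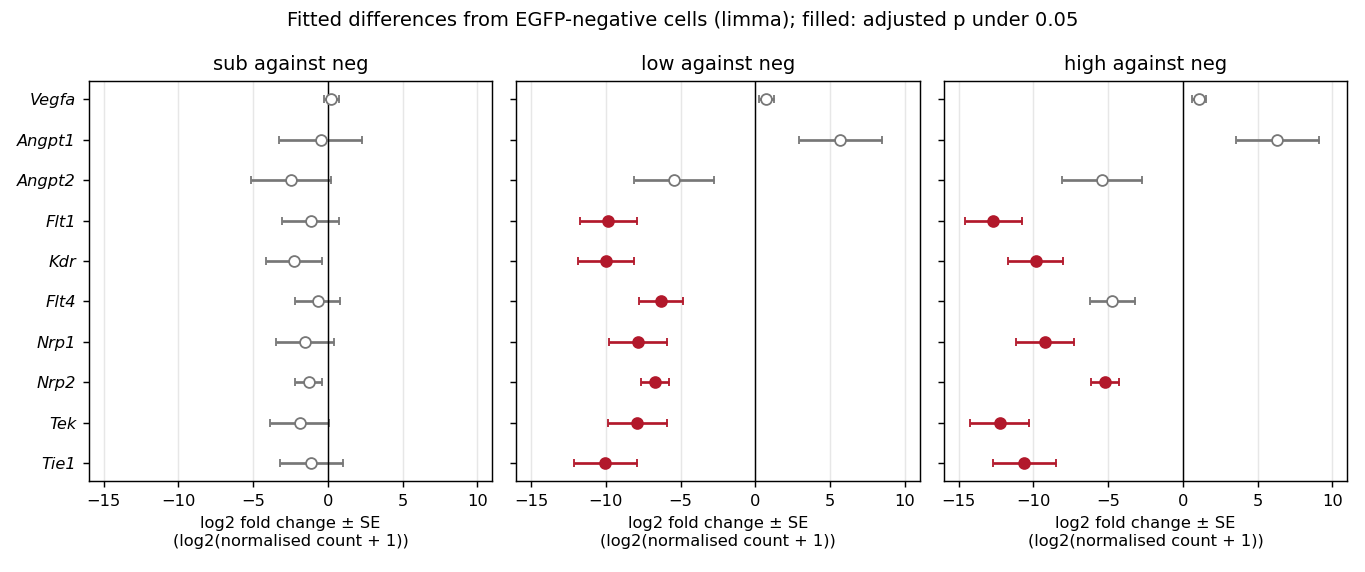
Log2 fold change ± SE from limma (x) of the 10 genes (y) for sub, low and high, each against neg; filled points passed an adjusted p of 0.05. No point is filled for sub, 7 are for low and 6 for high, all of them receptor genes below 0.

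Between the EGFP-positive gates, low was first compared with sub. Flt1 and Nrp2 fell from sub to low (log2 fold changes of -8.70 ± 1.91 and -5.40 ± 0.93 (SE), adjusted p of 0.0397 and 0.00831 in limma), where 0.614% of all genes tested were called lower. All 7 receptor genes had every low library below every sub library, as had 5.99% of all genes tested. Kdr and Tie1 had adjusted p-values of 0.0568 and 0.0546. The count of 2 was not firm: no member passed without sub 2, edgeR called 5 (Flt1, Kdr, Flt4, Nrp2 and Tie1; 0.98% of all genes), and Flt1 passed in 7 of 22 alternatives where Nrp2 passed in 20.

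From sub to high, Flt1, Nrp2, Tek and Tie1 fell, where 0.868% of all genes tested were called lower, with adjusted p-values of 0.00386 for Flt1, 0.0138 for Tek, 0.0354 for Tie1 and 0.0499 for Nrp2 in limma. Nrp2 passed in 7 of 22 alternatives, and its losses included equal totals and the replicate block. Sub was 4789-fold higher than high for Flt1 (counting interval 1639 to 23223), 1119-fold for Tek and 697.3-fold for Tie1, and each of these ratios rests on the reads of 1 high library (3 in high 2, 9 in high 3 and 7 in high 1). Without that library sub was at least 1918-fold, 974.5-fold and 513.6-fold higher, and without another high library 746.1-fold for Tek and 464.9-fold for Tie1. The call depended on single libraries: none of the 10 genes passed without sub 2, 1 (Flt1) passed without sub 1 or without sub 3, and 2 (Flt1 and Tie1) without high 1, high 2 or any 1 neg library. Without low 2, which is in neither group but shares the estimate of spread, all 7 receptor genes passed. edgeR also called all 7, against 1.25% of all genes, and every high library was below every sub library for all 7, as for 5.91% of all genes tested.

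The libraries of low and high overlapped for all 10 genes, while 3.28% of all genes tested were lower and 4.06% higher without overlap. None passed for high against low in limma, where 0% of all genes tested were called in either direction. Tek had the lowest unadjusted p, 0.0390, and was the only one under 0.05, where 684 of all 16128 genes tested were under it. edgeR and DESeq2 on the recovered reads each called Flt1 and Tek lower in high, against 0.143% and 2.57% of all genes. For Flt1 the low reads came almost all from low 1, and for Tek most came from low 2.

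The F test over the 4 populations passed for the 7 receptor genes and for none of the ligand genes, where 4.23% of all genes tested passed. Adjusted p-values ran from 2.18e-04 for Nrp2 to 0.0265 for Flt4 in limma. Without any 1 neg library, any 1 sub library or high 1, it passed for 4 (Flt1, Nrp2, Tek and Tie1).

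The receptors were next set beside markers of the cells known to make them. From neg to sub, the mean ratio was 2.19 for Flt1, 1.69 for Flt4, 2.24 for Tie1, 2.49 for Nrp2, 2.81 for Nrp1, 3.76 for Tek and 4.82 for Kdr. Over 10 pan-endothelial markers this ratio had a median of 2.41 and a range of 1.09 (Sox18) to 9.31 (Sox17). Over 10 markers of liver sinusoidal endothelium, such as Stab2 and Clec4g, the median was 4.57, with Lyve1 lowest at 0.991 and Fcgr2b highest at 8.14. The Lyve1 ratio rested on 1 sub library, as its sub values ran from 21.9 to 1772, and the next lowest ratio was 3.6 for Stab1. Marker sums of 3 lymphatic genes (Pdpn, Ccl21a and Mmrn1) went the other way, from 1340 to 1730 in neg and from 5779 to 14649 in sub. In these bulk libraries fewer cells of a type and less RNA per cell cannot be told apart.

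**Figure D3:**
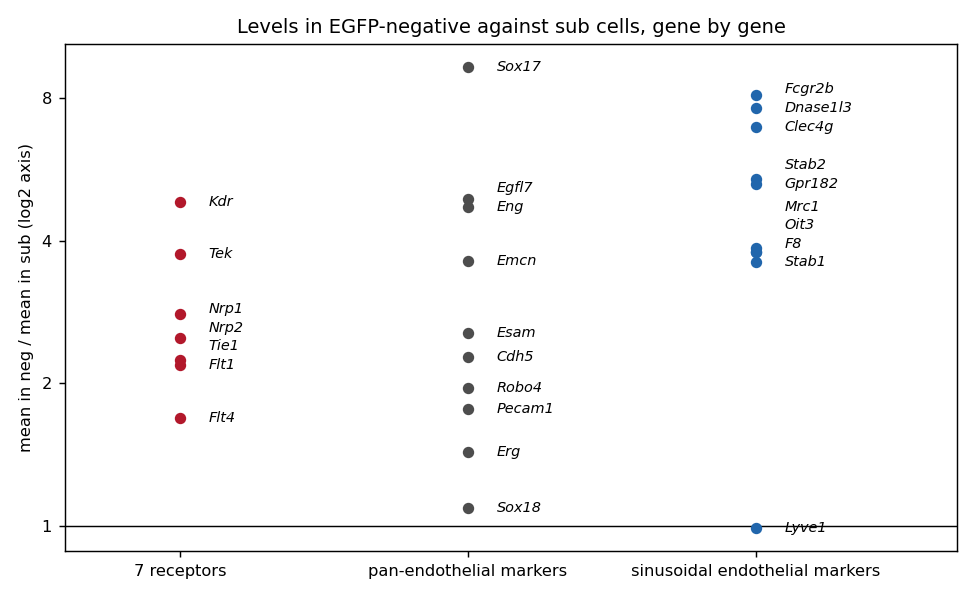
Mean normalised count in neg divided by that in sub (y, log2 axis), with 1 point per gene, for the 7 receptor genes, 10 pan-endothelial and 10 sinusoidal endothelial markers (x). The receptors lie between 1.69 and 4.82, within the range of both marker lists. For the sinusoidal list the low end is Lyve1 alone (0.991), and the next lowest is Stab1 (3.6). Flt1, Flt4, Tie1, Nrp1 and Nrp2 lie below every sinusoidal marker but Lyve1.

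Make-up among the VEGF receptors was compared within each library, which cancels the library's total of these transcripts. Kdr made up 55.6%, 72.5% and 66.8% of the summed per-kilobase level of Kdr, Flt1 and Flt4 in neg 1, 2 and 3, and 45.5%, 40.9% and 43.6% in sub. The means of 65.0 ± 8.59% and 43.3 ± 2.32% (SD, n = 3 each) did not overlap. Flt4 made up 13.9 ± 5.6% in neg and 26.6 ± 2.25% in sub, and Flt1 21.1 ± 5.06% and 30.0 ± 4.17%. Kdr exceeded Flt4 by 5.26 ± 2.26 times in neg and by 1.63 ± 0.11 times in sub. The shares of a library are parts of the same sum, and Kdr over Flt4 uses the same values, so the differences are tied to each other. Each of these 4 differences had an exact two-sided permutation p of 0.1, the smallest that 3 against 3 allows, and an adjusted p of 0.2 over 14 such ratios, so none can pass 0.05; the ratios were chosen after the values were seen.

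Tek over Tie1 and Nrp1 over Nrp2 overlapped between neg and sub (3.45 ± 2.12 against 1.84 ± 0.45, and 1.86 ± 0.41 against 1.59 ± 0.23, SD, n = 3). Relative to the sum of the 10 pan-endothelial markers, Kdr was at 60.4 ± 6.98% in neg and 32.3 ± 3.34% in sub, a ratio of 1.87, but with the 10 sinusoidal markers as the denominator the ratio was 1.08. With the pan-endothelial markers as the denominator, the other 6 receptor genes had ratios from 0.655 (Flt4) to 1.44 (Tek), and of these Tek alone did not overlap between the populations. These 6 were not set against the sinusoidal markers, whose sum averaged 99001 in neg and 21800 in sub. For sub against neg, limma called 24 of the 16128 genes tested lower (0.149%) and 168 higher. Of the endothelial markers, 0 of the 10 sinusoidal, 0 of the 3 lymphatic and 0 of 6 large-vessel ones passed, as for Kdr, with median log2 fold changes of -2.56, 3.74 and -0.03. The part of these markers in the make-up was not tested.

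**Figure D4:**
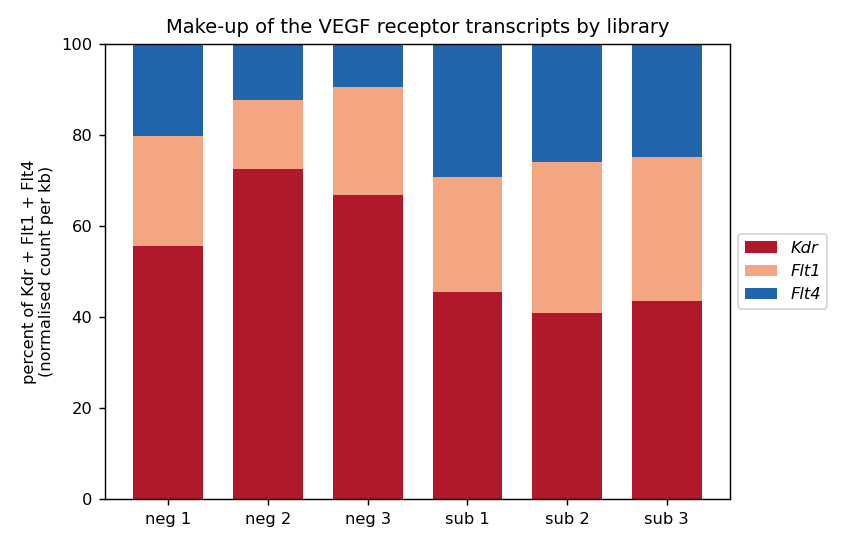
Percent (y) of the summed per-kilobase level of Kdr, Flt1 and Flt4 taken by each gene, 1 stacked bar per library of neg and sub (x). Kdr takes 55.6% to 72.5% in the 3 neg libraries and 40.9% to 45.5% in the 3 sub libraries.

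The receptor levels of low and high were also set beside endothelial markers. Called lower against neg in limma were 8 of 10 pan-endothelial, 8 of 10 sinusoidal, 4 of 6 large-vessel and 0 of 3 lymphatic markers for low, and 7, 6, 4 and 0 of them for high, where 2.15% and 2.25% of all genes tested were called lower. The large-vessel sum was 23336 to 25622 in neg, 2835 to 5074 in low and 2126 to 4429 in high. Most of it in low and high came from Efnb2, at 2121 ± 1502 in neg, 2901 ± 711.0 in low and 1879 ± 283.4 in high, and Ephb4, at 6506 ± 1020, 834.2 ± 358.2 and 1087 ± 911.2 (SD, n = 3). Stab2, a scavenger receptor of sinusoidal endothelium, was at 731.8, 118.1 and 0 in low and at 0.87, 159.7 and 96.4 in high, against 23317 to 33542 in neg. Pecam1 was above 0 in all 6 of these libraries, at 111.1 to 707.0, and Cdh5 was at 0 in 4 of them. Low 1 held the highest Flt1, Kdr, Nrp2, Tie1 and Stab2 of the 3 low libraries, and low 2 held the highest Tek. Flt4 (669.0) and Nrp1 (212.0) were highest in low 3, where Stab2 was at 0. The part of these markers in the receptor levels of low and high was not tested.

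Other genes of the pathway were taken from a list of 53, of which 48 could be tested. Of the other ligand genes, Vegfc was above 0 in all 3 sub libraries (100.2, 752.2 and 858.8), in 1 neg library (95.4) and at 0 in all 6 low and high libraries. Its sub mean of 570.4 was at least 236.3-fold higher than low (adjusted p of 0.105 in limma). Vegfb was at 2.76, 0 and 0 in neg and at 0, 0 and 207.5 in sub. In low it was at 334.0, 110.5 and 23.8, and in high at 0, 196.1 and 416.5. Its adjusted p for low against neg was 0.317 in limma. Pgf was at 0 in all 12 libraries. None of the other ligand genes passed in any comparison.

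Among regulators of the ligands and receptors, Ptprb, the endothelial phosphatase that restrains TIE2, gave the clearest difference. It fell from 55222 ± 8597 in neg and 13016 ± 3470 in sub to 637.1 ± 362.1 in low and 305.2 ± 282.9 in high (SD, n = 3), with adjusted p-values in limma of 1.15e-06 for low and 7.56e-08 for high against neg. Svep1, a matrix protein that binds TIE1, fell from 2198 ± 1005 in sub to 2.97 ± 5.14 in low (adjusted p of 0.0382), a call that ended with the replicate block. Ptprj, a phosphatase known to act on VEGFR2, went the other way and rose from 142.7 ± 129.7 in neg to 2121 ± 288.6 in low and 2635 ± 536.5 in high (adjusted p of 0.0259 and 0.0181). The integrin gene Itgav rose from 584.3 ± 79.2 in neg to 3566 ± 1169 in low (adjusted p of 0.0145), a call lost without the variance trend (adjusted p of 0.181 in limma). Ptprj was lost without any 1 sub, low or high library in both comparisons with neg and, for low, also without neg 2, and without sub 2 the calls of Ptprb and Svep1 for low against sub both ended.

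Over the 48 genes tested, 7 fell and 2 rose for low against neg, where 2.15% of all genes tested were called lower and 2.55% higher. For high against neg 7 fell and 1 rose, against 2.25% and 2.44% of all genes. Those that fell in both were Ptprb, Svep1, Nos3, Prkcb, Epas1 and Dll4, joined by Plcg1 in low and Fyn in high. Dll4, a Notch ligand induced by VEGF in endothelium, was at 2457 ± 1125 in neg and 1502 ± 127.7 in sub, at 25.0 ± 43.3 in low and at 0 in all high libraries, at least 912.6-fold lower in high than in neg. Nos3, the endothelial nitric oxide synthase, was at 70.9 to 2955 in neg and 0 in all low and high libraries. Epas1, the hypoxia factor known from endothelium, fell from 11060 ± 2400 in neg to 2406 ± 667.2 in low (adjusted p of 0.00121) and also from sub to low (adjusted p of 0.0308), while the other 7 genes of the hypoxia arm passed in no comparison.

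For sub against neg, 1 of the 48 passed in limma, where 0.149% of all genes tested were called lower. It was Prkcb, at 458.8 to 1056 in neg and 0 in every sub library (adjusted p of 0.0229 in limma), a call that edgeR did not make (adjusted p of 0.363). edgeR also did not call Prkcb for low or high against neg (adjusted p of 0.179 and 0.314), Plcg1 for low against neg (0.0659) or Fyn for high against neg (0.0710). Ptprb was called lower in sub than in neg by edgeR (adjusted p of 0.00178, against 0.144 in limma), where edgeR called 0.105% of all genes lower. Of 22 alternatives, 2 made this call of Ptprb. For low against sub, Ptprb, Svep1 and Epas1 passed in limma, all lower, where 0.614% of all genes tested were called lower. For high against sub, Ptprb, Svep1 and Dll4 passed in limma, all lower, against 0.868% of all genes. The 22 receptor signalling genes had a median log2 fold change of -0.88 for low against neg, and the 9 regulators a median of -4.90 (-5.04 with genes at 0 in a population taken at their bound), against 0 for all genes. Leaving out 1 library ended several of these calls: Dll4 for low against neg without neg 3 and for high against sub without sub 2 or sub 3, and Nos3 without neg 1 or neg 3, for low against neg also without low 2 or low 3 and for high against neg also without high 1 or high 3. Plcg1 was lost without any 1 neg library, low 1 or low 2, and Fyn without any 1 neg or sub library, low 1, low 3, high 2 or high 3. Epas1 was lost for high against neg without any 1 neg library, high 1 or high 2, and for low against sub without any 1 neg or low library, sub 2, sub 3, high 1 or high 2. For low against neg Epas1 was lost without the variance trend (adjusted p of 0.28 in limma) and in a fit of only these populations.

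Across the 12 libraries the receptor genes moved with each other. The Pearson correlations of log2(normalised count + 1) over the 21 pairs of the 7 receptor genes ran from 0.461 (Flt4 with Tek) to 0.965 (Flt1 with Tie1), with a median of 0.853. Vegfa and Angpt1 had negative correlations with all 7, from -0.395 with Tek to -0.652 with Kdr for Vegfa and from -0.566 with Flt4 to -0.726 with Flt1 for Angpt1. Among 9614 genes with a mean of at least 100, the most like Flt1 was Pde2a (0.992), the most like Kdr was Tgfbr3 (0.984), the most like Nrp1 was Atp2b4 (0.988), and the most like Tie1 was the collagen gene Col1a1 (0.985). The most like Flt4 was Pxdn (0.977), the most like Tek Emilin1 (0.971) and the most like Nrp2 Peak1 (0.961). Vegfa was most like Aff4 (0.901) and Angpt1 most like Gpcpd1 (0.980). The 12 points share their population and their depth, so these values describe the libraries and carry no test.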

How the data were processed

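RNA of 12000 sorted cells per library was treated with DNase for 30 min and made into SMARTer Stranded Total RNA Pico libraries (kit v2), per the labels' protocols. The authors deposited a signal per gene symbol, their normalised count, in 1 table whose 12 columns were all used. Salmon, DESeq2 1.26.0 and mm10 are named, with no role or order, per the submitters' processing notes; the annotation and the use of strand are not given in the sources used here. Dividing each column by its smallest non-zero value gave whole numbers for 100% of its entries (tolerance 0.001), so reads were recovered; in high 2 and sub 3 a read was worth 1.01 and 0.997, too near 1 to show a separate factor, and their reads were used too.

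Genes with a mean of at least 10 were kept (16128 genes, 99.9% of the summed values). limma 3.58.1 in R 4.3.3 (lmFit, then eBayes with trend) modelled log2(normalised count + 1) by population alone, using all 12 libraries; the 6 pairwise contrasts and an F test were two-sided, with Benjamini-Hochberg adjustment over all genes and a threshold of 0.05. Fold changes are on this scale: the pseudocount understates changes of low genes, but where some libraries of a population are at 0 the difference of mean logs can also exceed the ratio of means. The settings tried besides were a pseudocount of 0.5 or 5, testing every gene, a minimum mean of 100, equal totals, a replicate block, no variance trend, a fit of only 2 populations, each library left out, and edgeR 4.0.16 (quasi-likelihood) and DESeq2 1.42.0 on the recovered reads. The scripts were tested on simulated data. A fold against a population at 0 uses a floor of 3 reads per library. Reads are not independent molecules, so intervals and floors cover counting error only. Ratios between receptors were chosen after seeing the data.

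The 10 genes, the pathway and marker lists and the tests were chosen with earlier results of these data known. All 10 genes are named whatever their values, with every pathway gene past the threshold, Vegfb, Vegfc, Vegfd and Pgf, the markers Sox9, Pecam1, Cdh5, Stab2, Lrat, Epcam, Alb and Clec4f, and for likeness the genes with the highest correlation; other markers, named as examples or extremes of a list, were chosen after their values were seen. Gene positions are from GENCODE M21 (GRCm38).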

Additional observations from a re-analysis of the deposited data

How the results depend on the processing

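Of 1302 reruns of the log2 fold changes of the 10 genes, 1141 kept direction and side of the threshold, 106 lost the call, 41 gained it and 14 changed sign; an exact 0 was not counted as a change of sign. The causes were not tested. Counts of the 10 genes past the threshold in limma, with each library left out in turn, ranged from 0 to 3 for low against sub (42 to 170 of all genes), 3 to 6 for low against neg (465 to 737), 4 to 7 for high against neg (467 to 797), 0 to 7 for high against sub (74 to 245) and 4 to 7 for the F test (500 to 675). They stayed at 0 for sub against neg (149 to 317) and high against low (0 to 35). The calls over all genes, in parentheses, moved too. For low against sub (2 genes; 120) the count was 1 with a pseudocount of 0.5 (99), 5 with a pseudocount of 5 (173), 0 in a fit of only these populations (0), and 5 in edgeR (179) and in DESeq2 (1593 of 11964). For low against neg (7; 757) it was 4 without a filter (583), 4 without the variance trend (617) and 1 (Nrp2) with only these populations (203). For high against sub (4; 159) it was 0 with only these populations (8) and 7 in edgeR (227), and for high against low (0; 0) it was 2 in edgeR (34) and DESeq2 (646). The F test (7; 682) passed for 4 without the variance trend (590). DESeq2 gave no adjusted p for Kdr and Nrp1.

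Every change of sign was in a comparison where the gene had not passed in the limma fit to all libraries. For high against low, leaving out libraries gave log2 fold changes of -0.0496 to 0.61 for Vegfa, -2.23 to 2.63 for Kdr, -1.06 to 3.19 for Flt4 (-0.53 in edgeR and DESeq2), -3.91 to 0.53 for Nrp1, -1.53 to 0.94 for Tie1, -0.32 to 1.2 for Angpt1 and -0.0432 to 1.46 for Plcg1. For sub against neg they were -0.17 to 0.63 for Vegfa, -3.24 to 2.75 for Angpt1 and -1.62 to 1.06 for Nos3, and for high against sub -0.0039 to 0.35 for Itgav.

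Deviations from the population means had correlations of -0.016 to 0.027 (mean 0.0088) over 18 pairs of libraries with the same number. Over 36 pairs with different numbers they were -0.045 to 0.023 (mean -0.0044). Scatter within populations was wide for most genes, so these correlations cannot exclude that the numbers pair libraries. The main fit did not pair them, and the replicate block was an alternative. With the replicate block the counts were 0, 2, 0, 7, 6 and 4 in the order sub against neg, low against sub, high against low, low against neg, high against neg and high against sub, with Kdr in place of Flt1 for low against sub and in place of Nrp2 for high against sub. Of the pathway genes, Svep1 lost its call for low against sub (adjusted p of 0.0596) and Plcg1 gained one for high against neg (0.0497). Near the floor of 3 reads per library or at 0 were Flt1, Tek and Tie1 in high, and Angpt2 in low and high. In neg 1, 2 and 3, Angpt2 had 314, 0 and 387 reads. The part of depth in these values was not tested.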

Other observations

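Vegfd, the other known ligand of VEGFR3, was scattered: its normalised count was 255.6 in neg 1 and 0 in neg 2 and neg 3, 506.3, 390.4 and 8.98 in sub, 0 in all 3 low libraries, and 331.4, 209.2 and 0 in high. It was thus above 0 in all 3 sub libraries, as Vegfc was, but unlike Vegfc it was also present in high. Its log2 fold change for low against sub, -6.97 ± 2.94 (SE), had an adjusted p of 0.409 in limma.

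Markers of hepatic stellate cells, vessel-associated cells that store vitamin A, had like sums in neg and sub (10446 to 22231 and 13488 to 24831 over 10 genes) and sums of 40.8 to 1560 in low and 330.0 to 1340 in high. Lrat, their retinol-esterifying enzyme, was at 24.9, 1085 and 265.6 in neg and at 73.0, 0 and 68.8 in sub. It was at 0 in all 6 low and high libraries. Most of what was left in low and high was Rgs5, a gene of pericytes, at 829.0 ± 414.8 in neg, 844.6 ± 733.9 in low and 572.6 ± 400.0 in high (SD, n = 3).

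Of 10 markers of Kupffer cells and other macrophages 4 could be tested, and Csf1r alone passed in limma, higher in low and in high than in neg, where 2.55% and 2.44% of all genes tested were called higher. No neg library had Csf1r above 0, and its means of 872.5 ± 237.1 for low and 729.0 ± 213.7 for high made up most of the list's mean sums of 951.7 and 926.6. Cd68 was at 198.5 ± 291.1 in neg, 24.2 ± 42.0 in low and 79.6 ± 137.9 in high (SD, n = 3), and Adgre1, Timd4, Marco and C1qa were at 0 in all low and high libraries. Clec4f, the Kupffer cell marker, was at 0 in all neg and low libraries and reached 103.9 in sub and 163.5 in high. Of 10 hepatocyte markers 8 could be tested, and 3 passed as higher in low and 4 as higher in high than in neg (limma), beside the same 2.55% and 2.44% of all genes. Alb, the serum albumin gene, was lowest in neg, at 161.6 ± 151.8, stood at 3539 ± 2007 in sub, and averaged 11246 ± 3699 for low and 11927 ± 1576 for high (SD, n = 3). Apoa1 had its highest mean in neg, 410.8 ± 203.0, against 116.4 ± 201.6 in sub, 82.4 ± 142.7 in low and 53.5 ± 86.0 in high, and Serpina1a and Fabp1 were at 0 in all low and high libraries.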
